A study of Mus musculus with 6 samples.

Results

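The 10 genes described here encode laminin chains, nidogens and heparan sulfate proteoglycans of basement membranes, measured in kidney endothelial cells (ECs). They were taken by gene name from the 55401 genes of the count table, as Lama3, Lama4, Lama5, Lamb1, Lamb2, Lamc1, Nid1, Nid2, Hspg2 and Agrn. All 10 were found once each and all 10 passed the filter on low counts. Total RNA was sequenced with a stranded kit from CD31+CD45- cells sorted from kidneys of 3 CTRL mice (Cre -/-; Rbpjf/f, littermates without Cre) and 3 RbpjΔEC mice (RbpjDEC in the labels, Cre +/-; Rbpjf/f). In RbpjΔEC mice a tamoxifen-activated Cre is driven by the promoter of Cdh5, a gene active in blood and lymphatic ECs, and removes a floxed part of Rbpj, the DNA-binding partner of activated Notch receptors. Both groups carried 2 floxed Rbpj alleles and both received tamoxifen, given as 5 injections of 1.5 mg at 8 weeks, with organ harvest 12 weeks after induction. The labels give an age of 21 weeks for all 6 mice. Only RbpjΔEC mice carried Cre, so the loss of Rbpj and the presence of Cre cannot be told apart.

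Basement membranes are thin sheets of matrix on which endothelium rests. Laminins are trimers of an α, a β and a γ chain that polymerize on the cell surface and bind integrins and dystroglycan, and nidogens connect the laminin sheet to the network of type IV collagen. Perlecan (Hspg2) and agrin (Agrn) are large proteoglycans that bind laminin and hold growth factors through their heparan sulfate chains. Vessel walls contain mainly trimers with the α4 or α5 chain, and in the kidney the laminin of the mature glomerular filter holds α5, β2 and γ1.

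Libraries held between 39649171 and 47726850 counts on genes. Rbpj itself had 28.1, 29.7 and 29.8 CPM (counts scaled to library size, with TMM factors) in CTRL 1 to 3 and 28.9, 26.1 and 29.6 CPM in RbpjΔEC 1 to 3. These counts cover the whole gene and not the floxed part alone, so the groups rest on their labels. The Notch target Hey1 had 19.7 ± 2.93 CPM in CTRL and 11.7 ± 2.83 CPM in RbpjΔEC (SD, n = 3 each), a log2 difference of -0.76 with an adjusted p of 0.0722, and the Notch ligand Jag1 differed by -0.54 with an adjusted p of 0.0368 (edgeR quasi-likelihood test, Benjamini-Hochberg over 18438 tested genes, threshold 0.05). In CTRL 1, 33764 genes had a count, and in each of the remaining libraries 25629 to 26785. In a sorted population, fewer cells of one type and less RNA per cell cannot be told apart.

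Among the 10 genes, Lamb1 was lower in RbpjΔEC, and the other 9 did not pass the adjusted threshold in edgeR. Lamb2 passed as well with DESeq2, and in edgeR with no filter on low counts. Over all tested genes 1.13% passed in either direction and 0.559% in the lower direction. Both genes of the β chains, Lamb1 and Lamb2, had 3 RbpjΔEC libraries below 3 CTRL libraries, while the groups overlapped for the other 8, which include all α chains, the γ1 chain, both nidogens, perlecan and agrin. Groups without overlap were found for 23% of all tested genes. Before adjustment, 2 of the 10 were lower at p under 0.05 in edgeR and 0 higher, beside 8.62% and 8.88% of all tested genes. The log2 difference was below 0 for 7 of the 10, beside 48.9% of all tested genes, and its median was -0.08, beside 0.01 over all tested genes. No member was higher past the adjusted threshold with DESeq2 or limma voom either.

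The promoter windows of Lamb1, Lamb2 and Hspg2 are shown because both β chain genes had the smallest p values and Hspg2 the highest level. Each is the RefSeq window of 300 bases on GRCm38.p6, from 250 bases before to 50 after the annotated start, on the plus strand. Capitals mark the letters TGGGAA, the core that Rbpj protein recognizes, and GGGCGG, the GC box of Sp1 factors, on either strand. Lamb1 lies at chr12:31265043-31265342, Lamb2 at chr9:108479612-108479911 and Hspg2 at chr4:137468553-137468852.
Lamb1: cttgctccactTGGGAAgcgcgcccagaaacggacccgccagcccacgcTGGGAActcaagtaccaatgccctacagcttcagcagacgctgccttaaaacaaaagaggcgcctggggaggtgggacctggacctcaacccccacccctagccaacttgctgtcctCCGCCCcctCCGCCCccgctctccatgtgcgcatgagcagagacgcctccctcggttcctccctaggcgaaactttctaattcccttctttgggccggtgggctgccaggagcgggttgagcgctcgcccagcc
Lamb2: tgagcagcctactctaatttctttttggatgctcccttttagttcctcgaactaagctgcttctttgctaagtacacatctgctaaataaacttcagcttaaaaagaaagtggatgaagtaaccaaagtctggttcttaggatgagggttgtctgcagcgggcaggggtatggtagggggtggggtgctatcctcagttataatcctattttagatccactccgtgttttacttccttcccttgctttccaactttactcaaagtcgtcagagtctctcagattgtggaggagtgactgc
Hspg2: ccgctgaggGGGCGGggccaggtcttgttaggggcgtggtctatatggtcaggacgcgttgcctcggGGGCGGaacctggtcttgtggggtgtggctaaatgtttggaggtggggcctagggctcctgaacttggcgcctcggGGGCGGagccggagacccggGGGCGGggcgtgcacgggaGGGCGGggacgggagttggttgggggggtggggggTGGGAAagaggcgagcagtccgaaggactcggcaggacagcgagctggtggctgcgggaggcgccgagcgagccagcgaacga
The Lamb1 window held TGGGAA 2 times, beginning at -239 and -201 (the start base being 0), and GGGCGG 2 times. The Lamb2 window held neither, and its GC content was 44%, against 63.7% for Lamb1 and 70.3% for Hspg2. In Hspg2, TGGGAA began at -33 as part of the longer GTGGGAA, and GGGCGG occurred 5 times. Of the 10 genes, 6 had a window, with 7 windows in all because Agrn had 2. TGGGAA was in 3 of the 7 windows (Lamb1, Nid1 and Hspg2), and in 25.6% of all 32817 promoter windows. GTGGGAA was in 1 of the 7 and in 6.39% of all windows, and GGGCGG in 6 of the 7 and in 35.6% of all windows. CACGTG, the E-box letters bound by Hey and Hes type factors, was in 0 of the 7 and in 7.15% of all windows. These are letter matches in short windows and no measure of binding. Lama3, Lama4, Lamc1 and Nid2 had no entry.

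**Figure D1:**
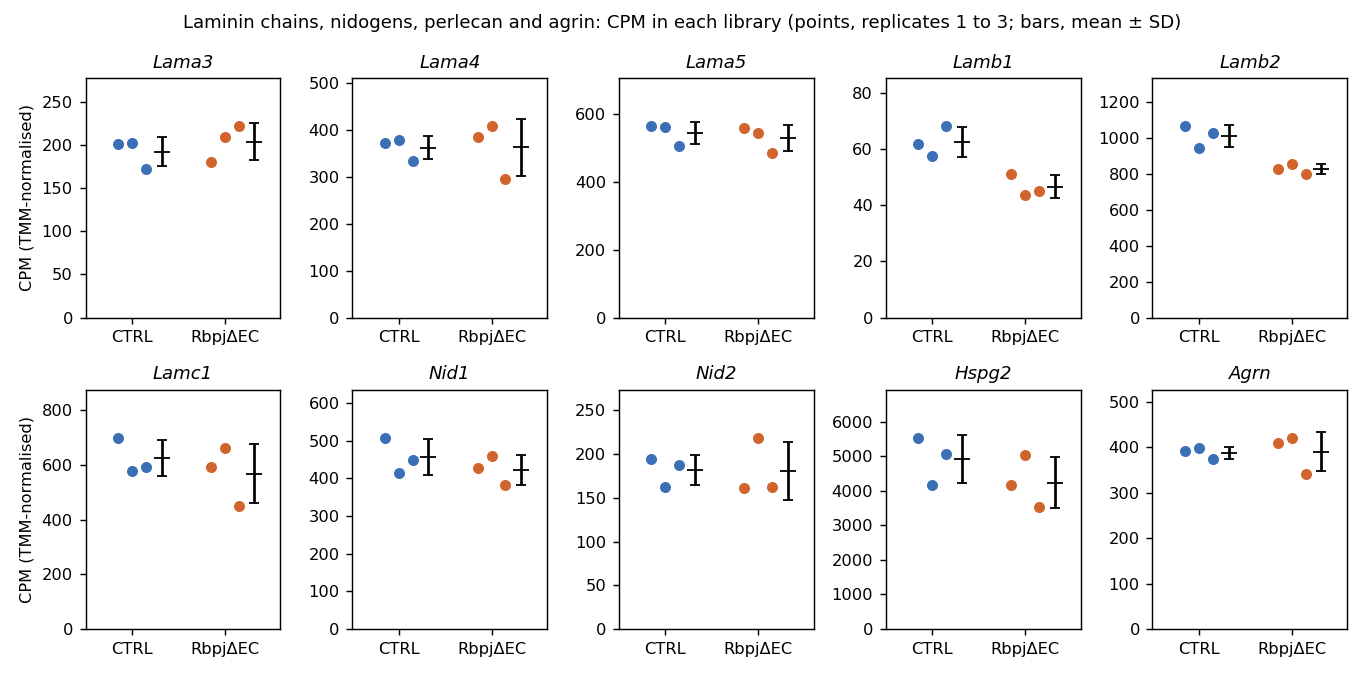
TMM-normalised CPM (y axis, from 0, own scale per gene) of the 10 genes in CTRL (blue) and RbpjΔEC (orange); points are single libraries in order of replicate number, and bars give mean ± SD of 3. The orange points lie below all blue points for Lamb1 and Lamb2 and overlap them for the other 8 genes.

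Lamb1 (ENSMUSG00000002900.17), which encodes the β1 chain of laminins of development and of many adult vessels, lies on chromosome 12 from 31265234 to 31329644 of GRCm38 on the plus strand. Lamb1 had 61.8, 57.6 and 68.1 CPM in CTRL 1 to 3 and 51.2, 43.5 and 45.1 CPM in RbpjΔEC 1 to 3. Its highest RbpjΔEC library was below its lowest CTRL library, and its level in RbpjΔEC was 74.6% of CTRL. The log2 difference of Lamb1 was -0.42 (95% interval -0.62 to -0.23, adjusted p = 0.0471, edgeR quasi-likelihood test with Benjamini-Hochberg adjustment). This call rested close to the threshold, and scaling to library size alone gave an adjusted p of 0.0633 in the same edgeR test. With 1 library left out in turn, it passed only without CTRL 2 (0.0231) and gave adjusted p values of 0.138 without CTRL 1, 0.184 without CTRL 3, 0.0929 without RbpjΔEC 1, 0.147 without RbpjΔEC 2 and 0.0592 without RbpjΔEC 3 in the same edgeR test, with a log2 difference between -0.50 and -0.36 throughout. Over all genes, 299 passed as lower without CTRL 2, 37 without CTRL 1, 17 without CTRL 3 and 13 without RbpjΔEC 1. That number was 30 without RbpjΔEC 2 and 333 without RbpjΔEC 3, against 103 in the full fit.

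Lamb2 (ENSMUSG00000052911.9), whose β2 chain takes the place of β1 in the mature glomerular basement membrane and in arterial walls, spans 108479736 to 108490530 on the plus strand of chromosome 9. Lamb2 had 1063, 943 and 1024 CPM in CTRL 1 to 3 and 826, 852 and 799 CPM in RbpjΔEC 1 to 3. Again the groups did not overlap, and the 3 RbpjΔEC libraries lay close together (SD 26.8 CPM, against 61.1 in CTRL). The level of Lamb2 was 81.7% of CTRL, a log2 difference of -0.29 (95% interval -0.45 to -0.13), and its adjusted p of 0.0803 in the same edgeR test missed the threshold. With 1 library left out it passed only without CTRL 2 (0.0328), where 299 of all genes passed as lower, against 103 in the full fit. Its adjusted p reached up to 0.264 otherwise in that edgeR test. DESeq2, the tool of the study, gave Lamb2 an adjusted p of 0.0165 and Lamb1 one of 0.00737, so that 2 of the 10 genes were lower, beside 0.84% of all genes in that fit (1.52% in either direction). Both were lower also in edgeR with no filter on low counts, beside 1.88% of all genes (3.75% in either direction). With limma voom 1 of the 10, Lamb1, was lower, beside 0.656% of all genes (1.32% in either direction). For both β chain genes the exact permutation test over 3 against 3 libraries gave 0.1, the smallest p it allows (two-sided). Groups without overlap always give this p, and 23% of all tested genes had such groups, so it adds nothing to the lack of overlap.

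**Figure D2:**
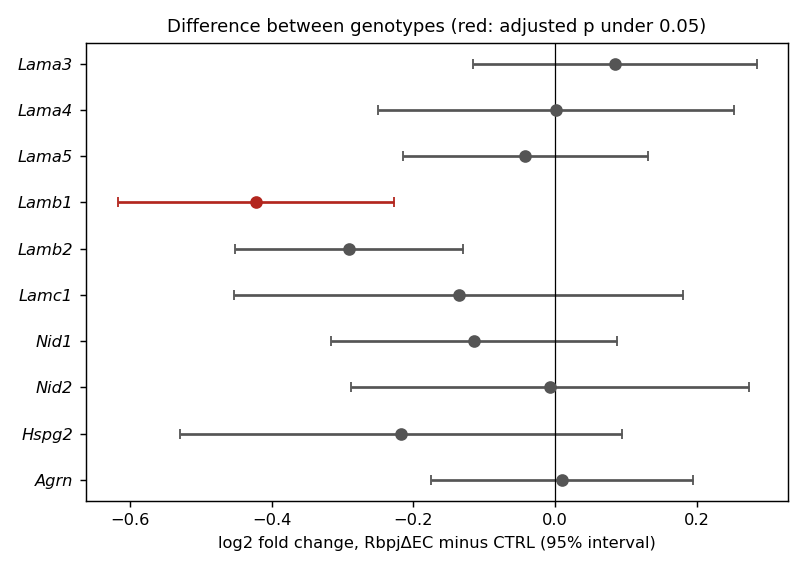
Log2 difference RbpjΔEC minus CTRL (x axis) with 95% intervals for the 10 genes (y axis) from the edgeR fit to 3 libraries per group. The intervals of Lamb1 (red, adjusted p under 0.05) and Lamb2 lie below 0, and the other 8 include 0.

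Per kb of exon, Lamb2 was far above Lamb1 in every library. Lamb2 had 166.1 ± 10.05 and Lamb1 6.30 ± 0.530 CPM per kb in CTRL, and 135.7 ± 4.41 and 4.70 ± 0.408 CPM per kb in RbpjΔEC (SD, n = 3 each). The share of Lamb1 in the sum of both β chain levels was 3.44%, 3.61% and 3.92% for the CTRL mice and 3.66%, 3.04% and 3.35% for the RbpjΔEC mice, in order of number. The shares overlapped, and their difference of -0.307 percentage points gave p = 0.3 in the exact permutation test (two-sided, smallest possible p 0.1). The difference was -0.151 without RbpjΔEC 2 and -0.464 without RbpjΔEC 1. On coding length, which is 5502 bases for Lamb1 against 9917 bases of merged exons, Lamb1 had 11.4 ± 0.955 CPM per kb in CTRL (SD, n = 3), and its share was 5.85% in CTRL and 5.37% in RbpjΔEC, a difference of -0.481 percentage points (p = 0.3, exact permutation test). A difference in the balance between β1 and β2 was not detected with these 6 libraries.

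For all 3 α chain genes the groups overlapped. Lama5 (ENSMUSG00000015647.9; chromosome 2, 180176373 to 180225859, minus strand) encodes the α5 chain, the α chain of the glomerular basement membrane and of arteries and arterioles. Lama5 had 565, 564 and 507 CPM in CTRL 1 to 3 and 558, 546 and 485 CPM in RbpjΔEC 1 to 3, a log2 difference of -0.04 with a 95% interval of -0.21 to 0.13. Lama4 (ENSMUSG00000019846.11; chromosome 10, 38965515 to 39110188, plus strand) encodes α4, an α chain of most endothelial basement membranes. Lama4 had 373, 379 and 334 CPM in CTRL 1 to 3 and 385, 407 and 294 CPM in RbpjΔEC 1 to 3, with a log2 difference of 0.0012 and an interval of -0.25 to 0.25. For Lama4, RbpjΔEC libraries were both the highest and the lowest of the 6. Its sign turned under 7 of 13 alternatives, and it passed under 0 of them in edgeR, DESeq2 or voom.

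Lama3 (ENSMUSG00000024421.16; chromosome 18, 12333819 to 12583013, plus strand) encodes α3, best known from the laminin that anchors epithelia. Lama3 had 201, 202 and 172 CPM in CTRL 1 to 3 and 179.8, 209 and 222 CPM in RbpjΔEC 1 to 3, with a log2 difference of 0.08 (95% interval -0.12 to 0.28). The groups overlapped, and the highest value was in RbpjΔEC 3. Lamb3, the gene of the β3 chain that joins α3 in the epithelial trimer, had 6 to 11 counts per library and was not tested.

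Of the summed level of Lama4 and Lama5 per kb of exon, Lama4 held 38.4%, 38.8% and 38.3% for the CTRL mice and 39.4%, 41.3% and 36.4% for the RbpjΔEC mice, in order of number. The 3 CTRL libraries differed by under 1 percentage point, while those of RbpjΔEC spread to both sides of them. The difference of 0.550 percentage points gave p = 0.7 in the exact permutation test (two-sided), and it was -0.593 without RbpjΔEC 2 and 1.87 without RbpjΔEC 3. Which of both genes was higher depended on the length used. The merged exons of Lama4 are 12068 bases long, against 5448 bases of coding sequence, and on coding length Lama4 held 57.6% in CTRL and 58.1% in RbpjΔEC.

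**Figure D3:**
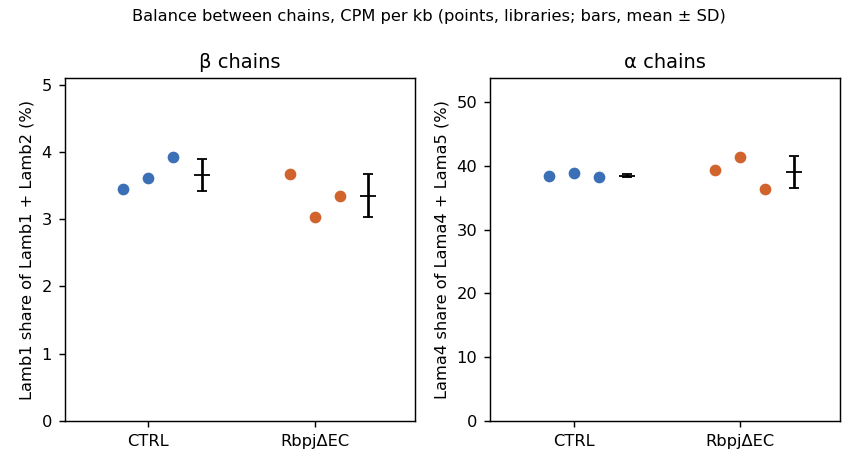
Share (y axis, percent, from 0) of Lamb1 in Lamb1 + Lamb2 (left) and of Lama4 in Lama4 + Lama5 (right), from CPM per kb of merged exons, in CTRL (blue) and RbpjΔEC (orange); points are libraries and bars mean ± SD of 3. Points of both groups overlap in both panels, and the RbpjΔEC points of the α chain share spread over 36.4% to 41.3%.

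Lamc1 (ENSMUSG00000026478.14; chromosome 1, 153218922 to 153332786, minus strand) encodes γ1, the γ chain shared by nearly all vascular laminins. Lamc1 had 701, 579 and 595 CPM in CTRL 1 to 3 and 595, 662 and 449 CPM in RbpjΔEC 1 to 3. The spread between RbpjΔEC libraries (SD 108.8 CPM) was larger than the difference between the groups, and the log2 difference of -0.14 had a 95% interval of -0.45 to 0.18. Without RbpjΔEC 3 it was 0.0081. The summed level of both β chains per level of Lamc1, per kb, was 2.14, 2.30 and 2.44 for the CTRL mice and 1.96, 1.81 and 2.503 for the RbpjΔEC mice. That ratio overlapped between the groups, with RbpjΔEC 3 the highest of all 6.

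Nid1 (ENSMUSG00000005397.8; chromosome 13, 13437551 to 13512269, plus strand) encodes nidogen-1, which binds the γ1 chain and type IV collagen. Nid1 had 508, 413 and 449 CPM in CTRL 1 to 3 and 426, 458 and 381 CPM in RbpjΔEC 1 to 3, a log2 difference of -0.11 with a 95% interval of -0.32 to 0.09. Nid2 (ENSMUSG00000021806.4; chromosome 14, 19751265 to 19811787, plus strand) encodes the related nidogen-2. Nid2 had 194.7, 163 and 188 CPM in CTRL 1 to 3 and 161, 219 and 162 CPM in RbpjΔEC 1 to 3, and the log2 difference of -0.0072 had an interval of -0.29 to 0.27. RbpjΔEC 2 was the highest of the 6 libraries for Nid2, and the other two RbpjΔEC libraries were the lowest. Exons of Nid2 share 437 bases (8.45% of its exonic length) with Rtraf on the opposite strand, and whether the counting used strand is not given in the sources used here. Rtraf had 8941 counts over all 6 libraries.

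Hspg2 (ENSMUSG00000028763.18), the gene of perlecan, spans 137468769 to 137570630 on the plus strand of chromosome 4. It was the most abundant of the 10 genes and alone took between 0.357% and 0.544% of all counts. Hspg2 had 5534, 4176 and 5061 CPM in CTRL 1 to 3 and 4151, 5024 and 3531 CPM in RbpjΔEC 1 to 3. The ranges overlapped, since RbpjΔEC 2 was above CTRL 2 and close to CTRL 3. The log2 difference was -0.22 (95% interval -0.53 to 0.09, adjusted p = 0.457, edgeR quasi-likelihood test with Benjamini-Hochberg adjustment), between -0.36 without RbpjΔEC 2 and -0.10 without RbpjΔEC 3. Agrn (ENSMUSG00000041936.18; chromosome 4, 156165290 to 156197488, minus strand) encodes agrin, which also binds dystroglycan. Agrn had 391, 399 and 373 CPM in CTRL 1 to 3 and 409, 421 and 341 CPM in RbpjΔEC 1 to 3, a log2 difference of 0.0099 with an interval of -0.18 to 0.20. RbpjΔEC libraries were both the highest and the lowest for Agrn.

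Ordered by CPM per kb of merged exons in CTRL, the 10 genes ran from Hspg2 (344.1 ± 48.2) over Lamb2 (166.1 ± 10.05), Lamc1 (75.5 ± 8.00), Nid1 (65.7 ± 6.90), Lama5 (47.9 ± 2.88), Agrn (41.8 ± 1.44), Nid2 (35.1 ± 3.27), Lama4 (29.98 ± 2.03) and Lama3 (17.9 ± 1.57) to Lamb1 (6.30 ± 0.530), each as CPM per kb (SD, n = 3). The CTRL ranges of the neighbours Lamc1 and Nid1 overlapped, although Lamc1 was above Nid1 within each CTRL library (84.7, 70.0 and 71.9 against 73.1, 59.5 and 64.7 CPM per kb), and the lowest library of Nid2 and the highest of Lama4 were both at 31.4. The ends of the order, with Hspg2 and Lamb2 highest and Lama3 and Lamb1 lowest, were the same on coding length, where Lama4 moved up to 66.4 ± 4.50 CPM per kb.

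The libraries did not move all genes alike. RbpjΔEC 3 was the lowest of all 6 libraries for 7 of the 10 genes and the highest for Lama3, CTRL 1 was the highest for 5, and RbpjΔEC 2 was the highest within its group for 7. Summed over the 10 genes, CTRL 1 to 3 had 9591, 7876 and 8771 CPM and RbpjΔEC 1 to 3 had 7742, 8842 and 6708 CPM. These sums overlap and are carried mostly by Hspg2. Lama5 and Agrn had the most similar profiles, with a root mean square difference of 0.0520 between their centred log2 CPM over 6 libraries, followed by Lama4 and Agrn (0.0586). The pairs among Lamc1, Nid1 and Hspg2 had values of 0.0932 to 0.102. They were not set apart, since Nid1 was at 0.109 from Lama5 and at 0.110 from Lamb2. Lama3 and Lamb1 were the least alike (0.329). The same libraries differed in the level of tubule markers. The 8 tubule markers summed to 456, 294 and 292 CPM in CTRL 1 to 3 and 155, 105 and 382 CPM in RbpjΔEC 1 to 3, but its genes did not move together. In RbpjΔEC 3 the proximal tubule receptor gene Lrp2 was at 129 CPM (13.7 to 40.4 elsewhere), while Umod, a gene of the loop of Henle, was at 39.9 CPM (56.0 to 106 in CTRL, and 42.6 and 18.3 in RbpjΔEC 1 and 2), both named after their values were seen. The part of tubule RNA in these values was not tested.

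**Figure D4:**
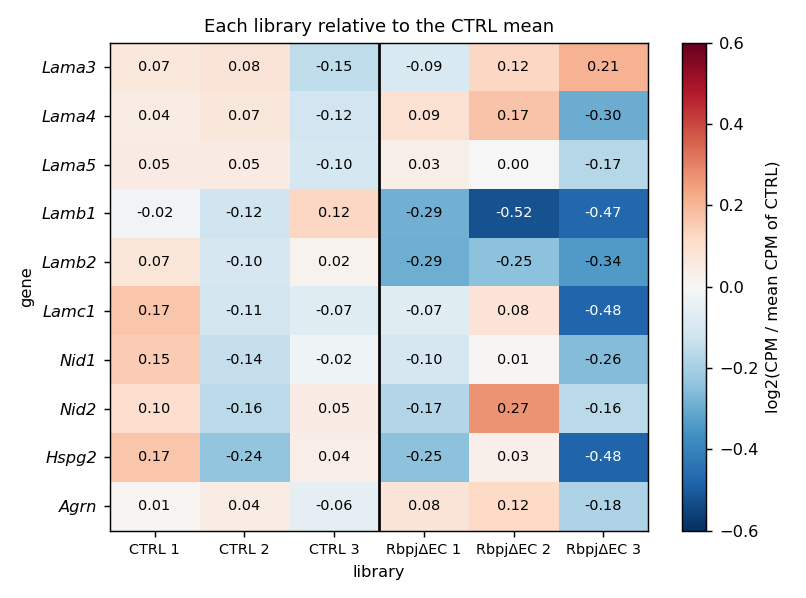
Log2 ratio of each library's CPM to the mean CPM of CTRL (colour and printed value) for the 10 genes (rows) in the 6 libraries (columns); the vertical line separates CTRL from RbpjΔEC. Lamb1 and Lamb2 are below the CTRL mean in all 3 RbpjΔEC libraries, by 0.25 to 0.52 on the log2 scale. RbpjΔEC 3 is the lowest library for 7 genes (Lama4, Lama5, Lamb2, Lamc1, Nid1, Hspg2 and Agrn).

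The comparison covered 8788 other genes with a mean of at least 10 CPM over the 6 libraries. Those with profiles most like Lamb1 were Fam136a (root mean square difference 0.0285), the taurine transporter gene Slc6a6 (0.0512) and Tmem47 (0.0622), against a median of 0.246 over the compared genes. For Lamb2 they were Ywhab (0.0111), which encodes a 14-3-3 protein, the sorting nexin gene Snx3 (0.0140) and Rhoa (0.0192), a regulator of the actin cytoskeleton, against a median of 0.179. Each value rests on 6 libraries and describes likeness of profile only.

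Genes around these 10 were examined in 5 lists of 66 genes, of which 60 were tested, and 4 were lower and 0 higher past the adjusted threshold, beside 0.559% and 0.575% of all tested genes. The 4 lower genes encode partners of laminin or its sheet. Col18a1, the gene of the basement membrane collagen from which endostatin is cut, had 144.6, 142 and 156 CPM in CTRL 1 to 3 and 74.6, 71.1 and 83.4 CPM in RbpjΔEC 1 to 3. Its log2 difference of -0.95 (95% interval -1.12 to -0.78) passed also without any single library (adjusted p up to 0.0089, edgeR quasi-likelihood test with Benjamini-Hochberg adjustment). Ntn4 encodes netrin-4, which binds laminin γ chains and can disrupt the laminin network. Ntn4 had 268, 304 and 310.1 CPM in CTRL 1 to 3 and 182, 189 and 213 CPM in RbpjΔEC 1 to 3, a log2 difference of -0.59 with an interval of -0.78 to -0.41. Fbln2, encoding the matrix protein fibulin-2, had 81.5, 88.6 and 97.1 CPM in CTRL 1 to 3 and 61.3, 59.6 and 64.1 CPM in RbpjΔEC 1 to 3, a log2 difference of -0.53 with an interval of -0.70 to -0.36. For all 3 genes every RbpjΔEC library lay below every CTRL library. The adjusted p was 0.000457 for Col18a1, 0.0101 for Ntn4 and 0.0138 for Fbln2 in the same edgeR test. With 1 library left out it reached up to 0.0723 for Ntn4 and 0.0808 for Fbln2. In their list of 17 basement membrane collagens and associated proteins, 14 were tested, 3 were lower, 0 higher, and the median log2 difference was -0.23. The other 11 did not pass in edgeR. With DESeq2, 5 of the 14 were lower, beside 0.84% of all genes in that fit. The additional 2 were Npnt, which encodes the integrin ligand nephronectin (log2 difference -0.80 in edgeR, adjusted p = 0.000133 in DESeq2), and Tinagl1 (-0.32, adjusted p = 0.0385 in DESeq2), both named after their values were seen. Among the other genes were the genes of the main type IV collagen chains, Col4a1 (log2 difference 0.02) and Col4a2 (0.03), which are named here for their role and after their values were seen.

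Among 12 genes of laminin and agrin receptors, 11 were tested, 1 was lower and 0 higher, beside 0.559% and 0.575% of all tested genes. Their median log2 difference was -0.26. The lower gene was Itgb4, whose β4 integrin pairs with α6 to bind laminin. Itgb4 had 20.5, 24.9 and 22.9 CPM in CTRL 1 to 3 and 16.1, 14.3 and 15.8 CPM in RbpjΔEC 1 to 3, a log2 difference of -0.57 (95% interval -0.80 to -0.34, adjusted p = 0.0318 and up to 0.120 with 1 library left out, edgeR quasi-likelihood test with Benjamini-Hochberg adjustment). Itgb1, the common β1 integrin subunit, had 978, 868 and 955 CPM in CTRL 1 to 3 and 710.2, 785 and 724 CPM in RbpjΔEC 1 to 3. Its log2 difference of -0.34 had an adjusted p of 0.0610 in that edgeR test and did not pass, while DESeq2 gave 0.00475 and limma voom 0.0427. Without a test, 7 of the 11 genes had groups that did not overlap, all lower, beside 11.6% of all tested genes in that direction.

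Of the 5 other laminin chain genes, 4 were tested and 0 passed in edgeR, DESeq2 or limma voom. Before adjustment, 2 were lower in edgeR at p under 0.05, beside 8.62% of all tested genes. All were at a few CPM or below. Lama2, the α2 chain known from muscle and mesenchymal cells, had 0.773, 1.20 and 0.474 CPM in CTRL 1 to 3 and 0.268, 0.0954 and 0.399 CPM in RbpjΔEC 1 to 3. Its log2 difference was -1.68, with an interval of -2.93 to -0.44. Lamc3 differed by -0.42, and Lama1 by 0.60 with an interval of -1.19 to 2.38.

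Agrin and laminin bind dystroglycan only after a special glycan is built on it. Of 13 genes of that glycan's synthesis, all tested, 0 passed in edgeR, DESeq2 or limma voom (0 also before adjustment in edgeR) and the median log2 difference was -0.02. Pomgnt2 and Pomgnt1 had the smallest p, with log2 differences of -0.38 and 0.11. Of 19 genes that build or edit heparan sulfate, the sugar chains of perlecan and agrin, 18 were tested and 0 passed in edgeR, DESeq2 or limma voom, with a median of -0.01. Before adjustment, 1 gene was past 0.05 in edgeR, beside 17.5% of all tested genes in either direction. That gene was Ext1, a subunit of the enzyme that extends the chain, with 30.7, 31.3 and 30.7 CPM in CTRL 1 to 3 and 35.1, 34.4 and 36.4 CPM in RbpjΔEC 1 to 3 (log2 difference 0.19, adjusted p = 0.229, edgeR quasi-likelihood test with Benjamini-Hochberg adjustment). Hs2st1, a sulfotransferase gene, had the next smallest p and a log2 difference of -0.16.

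**Figure D5:**
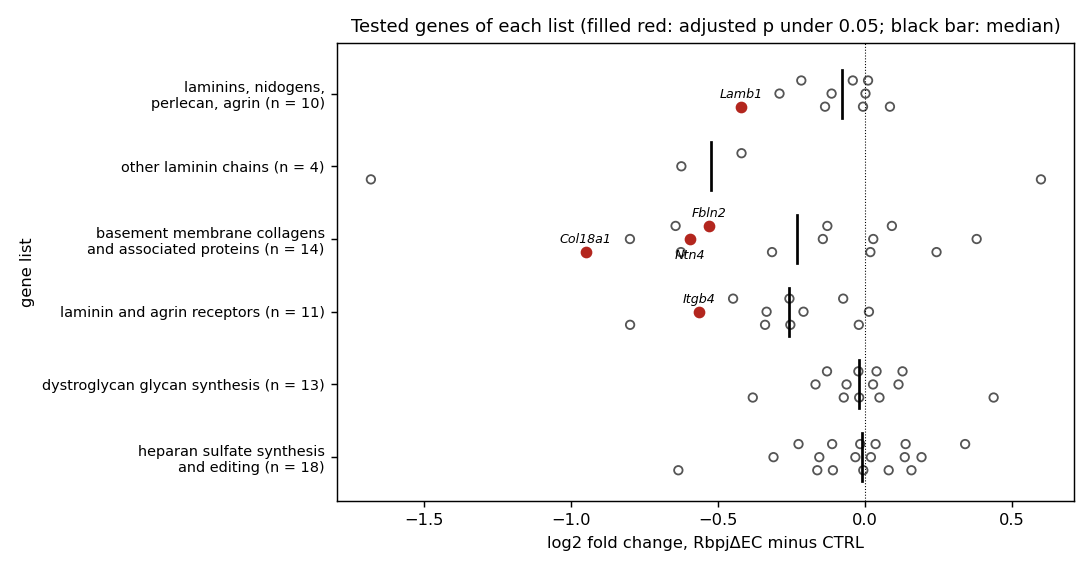
Log2 difference RbpjΔEC minus CTRL (x axis) of each tested gene in the 6 lists (y axis, number tested in brackets); filled red points passed the adjusted threshold and are named, open points did not, and black bars are medians. All 5 named genes (Lamb1, Col18a1, Ntn4, Fbln2 and Itgb4) lie below 0, and the medians of both glycan synthesis lists are near 0.

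Markers of other cells also differed between the groups. Over all tested genes, 0.559% were lower and 0.575% higher past the adjusted threshold in edgeR, and 8.62% and 8.88% at p under 0.05 before adjustment. With DESeq2 0.84% of all genes were lower (1.52% in either direction), and with limma voom 0.656% (1.32% in either direction). Of 11 smooth muscle and pericyte markers 10 were tested, 3 were lower (Acta2, Myh11 and Rgs5) and 0 higher in edgeR (7 lower and 1 higher with DESeq2, 2 lower with limma voom), and their summed level was 106.8 to 141 CPM in CTRL and 82.5 to 106 CPM in RbpjΔEC. Within that list Kcnj8 and Abcc9, which encode subunits of a pericyte potassium channel, had log2 differences of 0.93 and 1.03 that did not pass in edgeR (both named after their values were seen, and Kcnj8 passed with DESeq2). The 6 fibroblast markers summed to 4.63 to 7.08 CPM in CTRL and 1.54 to 2.92 CPM in RbpjΔEC, with Pdgfra lower (log2 difference -1.67) and Col1a2 at -1.83 not passing in edgeR, while both were lower with DESeq2. Of 6 podocyte markers 0 passed in edgeR (before adjustment, 1 was lower and 1 higher at p under 0.05), while with DESeq2 1 was lower and 1 higher, and with limma voom 1 was lower. Podxl, which ECs also express, was at -0.35 and was lower with DESeq2 and limma voom. Of the 8 tubule markers 0 passed in edgeR, DESeq2 or limma voom (before adjustment, 3 were lower at p under 0.05), with 6 of the 8 below 0, among them Aqp2 at -2.77 and Cdh1 at -1.61, and 2 above 0, Lrp2 at 1.27 and Slc34a1 at 1.28. Of 6 leukocyte markers, 4 were tested and Cd68 was higher (1.27), Ptprc differed by -1.44 without passing, and Cd3e had 0 counts in every library. The list's sum was 14.1 to 15.1 CPM in CTRL and 23.3 to 28.1 CPM in RbpjΔEC, of which Cd68 alone gave 22.1 to 25.1 CPM. The 12 pan-endothelial markers, which check the sorted cell type, summed to 21946 to 24068 CPM in CTRL and 19905 to 20209 CPM in RbpjΔEC. Of these, 0 passed the adjusted threshold in edgeR (before adjustment, 4 were lower and 1 higher at p under 0.05), with Kdr at -0.27 and Eng at -0.41 and a median of -0.18. With DESeq2, 4 of the 12 were lower (Emcn, Eng, Flt1 and Kdr), and with limma voom 1 (Eng). The log2 difference of Lamb2, -0.29, lay within the range of these markers, from -0.41 to 0.22, and that of Lamb1, -0.42, just outside it. The part of these other cells and of EC content in the β chain values was not tested.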

How the data were processed

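Sorted kidney ECs of 3 CTRL and 3 RbpjΔEC mice (which the study calls biological replicates) were compared. The authors trimmed the reads with Trim Galore 0.6.4, aligned them with STAR 2.6.1d to GRCm38.p6 with GENCODE M25 and deposited raw counts per gene from featureCounts (Subread 1.6.4), whole numbers without normalization. The strand setting of the counting is not given in the sources used here. Table columns were matched to samples by the library codes in the labels.

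From these counts, TMM factors, CPM and tests were computed with R 4.3.3 and edgeR 4.0.16 (filterByExpr, robust estimateDisp and glmQLFit, glmQLFTest). P-values of the 18438 genes kept were adjusted after Benjamini-Hochberg, with a threshold of 0.05. Intervals are 95% intervals from the fit. Log2 CPM for profiles used a prior count of 2. DESeq2 1.42.0 (Wald test, no independent filtering and no Cook's cut-off) and limma 3.58.1 (voom) were alternatives. Positions and lengths were read from GENCODE M21 (GRCm38), where 55141 of the 55401 genes were found, so single positions can differ from M25. A count of 3 corresponds to between 0.0629 and 0.0757 CPM. The fit was tested on simulated data drawn from these libraries. The genes and lists, and the rule for genes named from each list (all that passed and the 2 with the smallest p, of which some are not reported here), were chosen with earlier results of these data known.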

Additional observations from a re-analysis of the deposited data

How the results depend on the processing

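Of the 10 genes, 1 was lower and 0 higher past the adjusted threshold. That count of lower genes was 0 with scaling to library size alone, 2 with no low-count filter, 2 with DESeq2's Wald test and between 0 and 2 with 1 library left out, where each fit also has fewer samples. It was 1 with DESeq2 size factors, the filter at 1 CPM and limma voom, and the count of higher genes was 0 throughout. For the 5 wider lists the 4 lower genes became 10 with no low-count filter, 7 with DESeq2's Wald test and between 1 and 6 with 1 library left out, where the low counts were without CTRL 3 (1), RbpjΔEC 1 (1) and RbpjΔEC 2 (2). The count of higher genes in those lists was 1 with no low-count filter and between 0 and 1 with 1 library left out. Over all genes, 13 to 333 passed as lower and 7 to 401 as higher with 1 library left out, against 103 and 106 in the full fit. The fewest lower genes were without RbpjΔEC 1 and the most without RbpjΔEC 3. Without the filter 38324 genes entered the fit and 1436 passed, against 209. The cause was not tested. Among the 10 genes, signs turned for Lama4, Lama5, Lamc1, Nid2 and Agrn. Lama4 was at -0.0015 with DESeq2 size factors, -0.00048 with DESeq2's test, -0.010 with limma voom and -0.011 with the replicate block, Lama5 at 0.00081 with library size alone, and Nid2 at 0.036 with library size alone and 0.00066 without the filter. With 1 library left out, Lama4 ran from -0.091 to 0.13, Lama5 from -0.093 to 0.018, Lamc1 from -0.26 to 0.0081, Nid2 from -0.17 to 0.069 and Agrn from -0.047 to 0.10. Nid1 and Lama3 kept their signs but ran from -0.19 to -0.035 and from 0.011 to 0.17. With 1 library left out the α chain share difference was between -0.593 and 1.87 percentage points and that of the β chains between -0.464 and -0.151. With other lengths or none the latter was between -0.481 and -0.467. The labels link samples of both groups by replicate number alone. The deviations of same-numbered samples from their group means correlated at 0.0231, 0.0092 and 0.0054 over genes. Those of differently numbered samples correlated at -0.0628 to 0.0480. These values cannot show whether same-numbered mice shared a litter or a batch. With the replicate number as a block 1 of the 10 genes was lower (Lamb1, log2 difference -0.42) and 5 genes of the wider lists, while 178 of all genes passed as lower and 166 as higher. Each of the 10 genes had at least 1807 counts in every library.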
